A study of Mus musculus with 24 samples.

Results

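The nuclear-encoded genes of the mitochondrial respiratory chain were followed by RNA sequencing of mouse lung. Members were chosen by gene symbol, with no measured value other than a minimum summed count of 240 over all libraries. The symbols were those beginning with Ndufa, Ndufb, Ndufc, Ndufs or Ndufv and a digit, the 4 Sdh subunit genes, and those beginning with Uqc, with Cox4 to Cox8 or with Atp5. Of 26253 genes in the deposited counts, 92 symbols matched, 2 of them pseudogenes that were left out (Cox7c-ps1 and Ndufs5-ps), and 3 had too few reads (Cox7b2 with 13 counts in all, Cox8c with 4 and Ndufa11b with 51). This left 87 genes, of which 39 were counted with complex I, 4 with complex II, 11 with complex III, 16 with complex IV and 17 with complex V. All 87 passed the filter on low counts. Ndufa4 and Ndufa4l2 were counted with complex I by their symbols, although the Ndufa4 protein is now placed in complex IV, and Uqcc1, Uqcc2 and Uqcc3 are assembly factors of complex III rather than subunits. The subunits encoded by mitochondrial DNA were not analysed here.

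Libraries fell into 4 groups of 6: mice fed docosahexaenoic acid (DHA, an omega-3 fatty acid of fish oil) and exposed to ozone, mice on that DHA-rich diet kept in filtered air, mice on the control diet exposed to ozone, and mice on the control diet kept in filtered air. By its title the study is about DHA and lung inflammation caused by ozone, an irritant oxidant of polluted air. Strain, sex, age, ozone dose and timing are not given in the labels used here. Whether each library is a separate mouse is not stated, so every p-value measures the spread between these libraries, which may be partly technical. Because the RNA came from whole lung, fewer cells of a type and less RNA per cell cannot be told apart.

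Libraries held between 18053493 and 26225630 counts, and 16153 genes passed the filter and were tested. Markers of alveolar type 2 cells, the surfactant-making cells of the lung, had all 11 genes detected, with summed levels of 43520 to 47310 CPM (counts scaled to equal library size) in DHA-diet ozone, 41670 to 46240 in DHA-diet air, 41690 to 42980 in control-diet ozone and 29810 to 43970 in control-diet air libraries. In the control-diet air group, libraries 1 to 3 differed from libraries 4 to 6. The members' median deviation from their mean log2 CPM over all libraries was −0.136, −0.143 and −0.242 in the first 3 and 0.041, 0.126 and 0.099 in the other 3. Cytosolic ribosomal protein transcripts deviated in the same libraries by −0.209, −0.24 and −0.282, against 0.124, 0.146 and 0.19. Counts of members called in comparisons with control-diet air libraries are therefore given with all 6 and without libraries 1 to 3, and values of single genes with all 6 unless stated. The split rests partly on the members' own levels, so leaving out libraries 1 to 3 or 4 to 6 moves the members' values in a known direction. Such counts are no independent check. In DHA-diet air libraries the members deviated by −0.117 to −0.033, on the side of libraries 1 to 3. Where other gene lists are recounted, only counts without libraries 1 to 3 are given. The shares of all tested genes in that smaller fit are not given here. A change in a list's count there cannot be told from a change over all genes. DHA-diet ozone library 1 also differed from the rest of its group. Its gene counts differed from those of the other 5 by a chi-square per degree of freedom of 35.02 to 59.7, against 6.25 to 19 among the other 5. Its summed markers of club cells, the secretory cells of the airway, were 66420 CPM against 97380 to 130400 in the other 5, and those of ciliated cells 850.3 CPM against 1396 to 1590. Summed ciliated markers were 1335 to 1625 CPM in DHA-diet air, 1474 to 1837 in control-diet ozone and 1482 to 1840 in control-diet air libraries. Without that library 39 members were called higher and 0 lower after ozone on the DHA diet. The share of all tested genes called in that fit is not given here.

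The respiratory chain sits in the inner mitochondrial membrane. Complex I (NADH dehydrogenase) and complex II (succinate dehydrogenase) pass electrons to coenzyme Q, complex III passes them on to cytochrome c, and complex IV (cytochrome c oxidase) hands them to oxygen. Complexes I, III and IV pump protons, and complex V, the ATP synthase, lets protons flow back to make ATP. Most of the subunits are encoded in the nucleus, and in the lung energy-demanding cells such as alveolar type 2 cells and ciliated cells are rich in mitochondria.

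Per kilobase of transcript, the most abundant members were Cox4i1, a core-bound subunit of complex IV, with a mean level of 629 CPM per kilobase over all libraries, Cox6a1 with 391 and Atp5b, the catalytic beta subunit of the ATP synthase, with 364. By counts alone Atp5b was the highest and Ndufb4c, a close copy of Ndufb4 whose reads may be split with it, the lowest. Summed CPM per complex placed complexes I and V highest in every group. Complex I summed to a median of 2926 CPM in DHA-diet ozone, 2587 in DHA-diet air, 2798 in control-diet ozone and 2651 in control-diet air libraries. Complex V gave 2990, 2587, 2879 and 2708 CPM in the same order of groups, and complex II, with 4 genes, gave 619.5, 551, 622 and 582 CPM. On the DHA diet the ranges of the summed levels did not overlap between ozone and air for complex I (2732 to 3072 against 2526 to 2674 CPM), complex II (594 to 635.5 against 536 to 575 CPM) or complex V (2782 to 3053 against 2548 to 2674 CPM). They overlapped for complex III (965 to 1054 against 901 to 978 CPM) and complex IV (1747 to 2007 against 1700.0 to 1811 CPM). On the control diet ranges overlapped for every complex, as control-diet air libraries were widely spread (complex I 2718 to 3058 CPM after ozone, against 2307 to 2928 CPM in air). No test was made of these sums. Some of the genes with full statistics below lie, on build mm39 as deposited, at chr5:115483711-115487018 (Cox6a1), chr9:57428515-57439710 (Cox5a), chr17:83809346-83821763 (Cox7a2l), chr10:127919176-127926258 (Atp5b), chr19:3958863-3962775 (Ndufs8), chr4:140688582-140706510 (Sdhb), chr1:170956726-170978173 (Sdhc) and chr11:53318749-53321659 (Uqcrq).

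**Figure D1:**
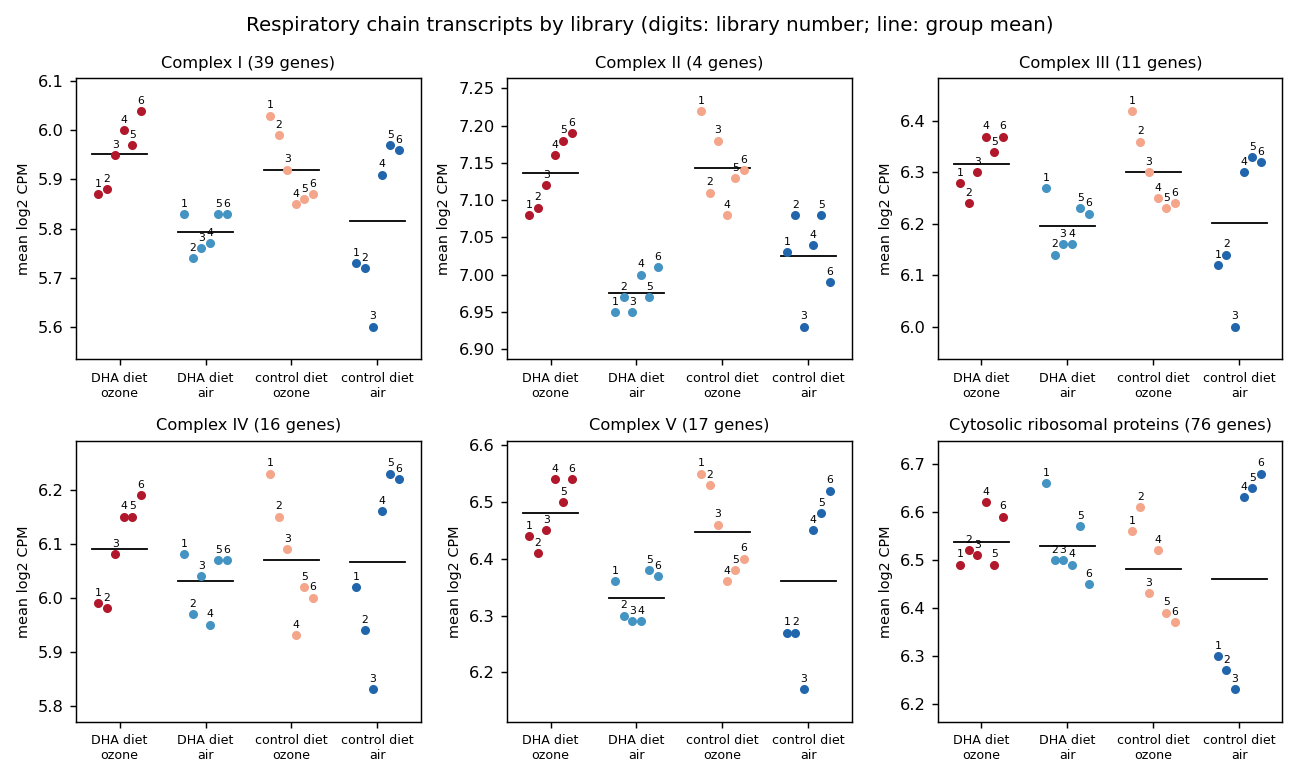
Mean log2 CPM of the members of each complex and of cytosolic ribosomal protein genes (vertical axes) in every library of the 4 groups (horizontal axis). Points are libraries with their number and lines are group means. Complex I, II and V levels of DHA-diet ozone libraries lie above those of DHA-diet air, and control-diet air libraries 1 to 3 lie below libraries 4 to 6 in complexes I, III, IV and V.

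In mice on the DHA diet, 37 of 87 members rose after ozone relative to filtered air, by small amounts, most of them in complexes I, II, III and V, and 1 fell. By edgeR's quasi-likelihood test, at a Benjamini-Hochberg adjusted p under 0.05, this is 42.5% higher and 1.15% lower, beside 12.7% of all tested genes higher and 11% lower. The members that rose did so by 7.01 to 30.3%, with a median of 16.6%. Over all 87 the median log2 fold change was 0.145, against −0.011 over all tested genes, and 76 of 87 had a value above 0. In 23 members every ozone library lay above every air library, which is the case in 5.14% of all tested genes. Complex I had 21 of 39 members higher (median log2 fold change 0.162), complex II 2 of 4 (0.152), complex III 5 of 11 (0.145) and complex V 7 of 17 (0.159). Complex IV had 2 of 16 higher (12.5%, near the share of all tested genes) and 1 lower, with a median of 0.052. Its 16 members include the tissue-restricted forms Cox4i2, Cox6a2, Cox6b2, Cox7a1 and Cox8b. With Ndufa4l2, these forms had a group mean log2 CPM of 4.338 after ozone and 4.374 in air. Their common forms, with Ndufa4, had 7.462 and 7.317. These common forms leave out other complex IV members, namely Cox5a, Cox5b, Cox6c, Cox7a2l and Cox7c. A complex IV median without the restricted forms is not given here, so their part in the low median was not tested.

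In complex I, core subunits of the electron-carrying arm rose, among them Ndufs1, Ndufs3, Ndufs7, Ndufs8, Ndufv1 and Ndufv2. Ndufv1, which binds NADH and the flavin where electrons enter, had 113 CPM at the lowest, 119 at the median and 122 at the highest in DHA-diet ozone libraries, against 94.6, 102 and 110.2 in DHA-diet air libraries. The groups did not overlap, and the log2 fold change was 0.21 ± 0.042 (SE, adjusted p = 0.000538). Ndufs8, an iron-sulphur subunit near the coenzyme Q end, had 67.1, 74.0 and 77.6 CPM after ozone, against 55.4, 61.0 and 64.6 CPM in air. Again no library of one group reached the other, with a log2 fold change of 0.28 ± 0.054 (adjusted p = 0.000618). Ndufs1, the largest iron-sulphur subunit, had 70.2, 71.7 and 73.1 CPM after ozone and 59.2, 61.1 and 63.9 CPM in air (log2 fold change 0.23 ± 0.048, adjusted p = 0.00108). Among accessory subunits, Ndufa12 had 28.7, 30.4 and 31.6 CPM after ozone, against 23.2, 24.6 and 27.6 CPM in air, without overlap (log2 fold change 0.29 ± 0.063, adjusted p = 0.00136). Ndufa9, an accessory subunit beside the coenzyme Q site, had 83.8, 97.2 and 99.96 CPM after ozone and 77.1, 79.6 and 87.2 CPM in air. These ranges overlapped through DHA-diet air library 6, and Ndufa9 passed the test (log2 fold change 0.24 ± 0.049, adjusted p = 0.000765). Accessory subunits that also rose were Ndufa2, Ndufa5, Ndufa8, Ndufa10, Ndufb3, Ndufb6, Ndufb7, Ndufb10, Ndufc1, Ndufs5, Ndufs6 and Ndufv3. Of the 18 complex I members without a call, Ndufa6 (log2 fold change −0.09), Ndufa4l2 (−0.08), Ndufb1 (−0.01) and Ndufb4 (−0.01) had values under 0.

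Complex II, the only one of these complexes that is also an enzyme of the tricarboxylic acid cycle, is encoded wholly in the nucleus. Sdhb, its iron-sulphur subunit, had 90.1, 103 and 109.7 CPM (lowest, median and highest) in DHA-diet ozone, against 81.2, 84.1 and 91.1 CPM in DHA-diet air libraries. The highest air library lay just above the lowest ozone library, and the log2 fold change was 0.26 ± 0.051 (adjusted p = 0.000563). Sdhc, a membrane anchor, had 127, 132 and 135.5 CPM after ozone and 114, 117 and 119.8 CPM in air, with no overlap (log2 fold change 0.17 ± 0.039, adjusted p = 0.00176). Sdha, the flavoprotein that oxidises succinate, missed the threshold (log2 fold change 0.13 ± 0.050, adjusted p = 0.0592), as did the other anchor Sdhd.

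In complex III the core proteins Uqcrc1 and Uqcrc2, the small subunits Uqcrq and Uqcr11 and the assembly factor Uqcc2 rose. Uqcrq, which lies next to cytochrome b, had 114.5, 126 and 133 CPM in DHA-diet ozone libraries, against 97.0, 98.5 and 104 CPM in DHA-diet air. The groups were separate (log2 fold change 0.33 ± 0.073, adjusted p = 0.00169). Uqcrfs1, the Rieske iron-sulphur protein that passes electrons on, had 94.6 ± 3.57 CPM after ozone and 89.6 ± 4.24 CPM in air (SD, n = 6 each) and did not pass (adjusted p = 0.191).

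Complex IV held both the member with the lowest adjusted p and the member that fell. Cox6a1, the common form of a small subunit that most tissues use, had 231, 255 and 267 CPM in DHA-diet ozone libraries, against 182, 187 and 215 CPM in DHA-diet air libraries. All 6 ozone libraries lay above all 6 air libraries, with a log2 fold change of 0.38 ± 0.056 (adjusted p = 2.9e-05). Cox5a, a subunit on the matrix side, had 75.5, 85.6 and 88.1 CPM after ozone and 65.5, 67.2 and 68.5 CPM in air, without overlap (log2 fold change 0.32 ± 0.061, adjusted p = 0.000499). Cox7a2l, a factor that joins complexes III and IV into supercomplexes, fell. Its levels were 121, 137 and 161 CPM after ozone, against 151, 158 and 163 CPM in air, with a log2 fold change of −0.18 ± 0.058 (adjusted p = 0.0238). Its groups overlapped, and it was no longer called without DHA-diet ozone library 1, 3 or 5 or DHA-diet air library 1 or 5. Cox4i1 (log2 fold change 0.15 ± 0.066, adjusted p = 0.104) and Cox5b (0.08 ± 0.056, adjusted p = 0.324) did not pass.

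In complex V, Atp5b had 692, 765 and 808 CPM in DHA-diet ozone libraries, against 605, 639.6 and 671 CPM in DHA-diet air libraries. No air library reached the lowest ozone library (log2 fold change 0.25 ± 0.046, adjusted p = 0.00031). Atp5a1, the alpha subunit that alternates with beta in the catalytic head, had 658, 685 and 705 CPM after ozone and 547, 592 and 615 CPM in air, also without overlap (log2 fold change 0.21 ± 0.041, adjusted p = 0.00052). The gamma subunit Atp5c1, the turning shaft inside that head, did not pass (log2 fold change 0.06 ± 0.042, adjusted p = 0.362). Atp5pb and Atp5o of the stalk that holds the head still, Atp5h of the same stalk, Atp5d of the shaft and Atp5g3 of the membrane ring also rose, while Atp5g1 and Atp5g2, which encode the same mature ring protein as Atp5g3, did not pass. Atpif1, which encodes the inhibitor of the reverse reaction and is not one of the 87, averaged 114 ± 10.6 CPM after ozone and 106 ± 7.79 CPM in air (SD, n = 6 each) and was not called (adjusted p = 0.330).

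**Figure D2:**
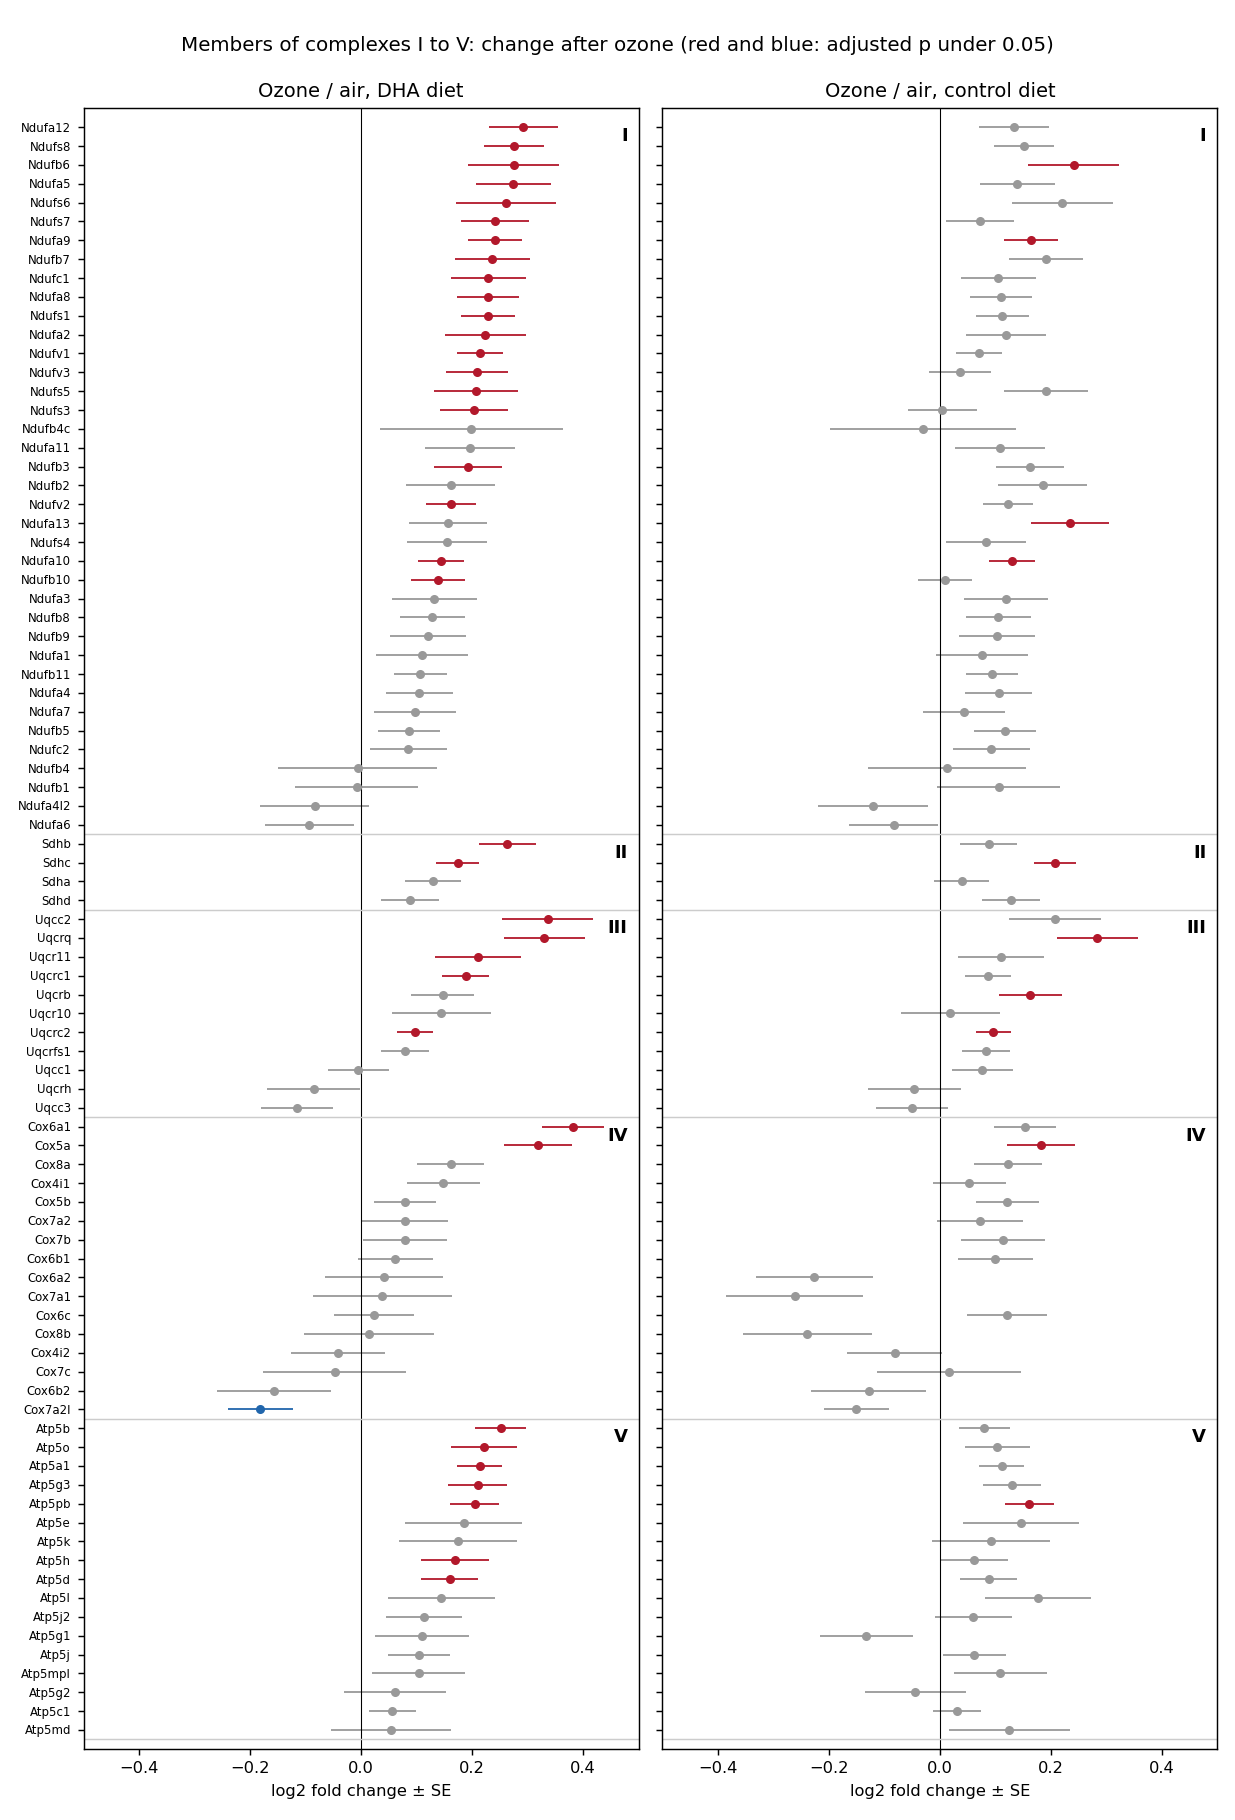
Log2 fold change of ozone over air (horizontal axes) with its SE for the members (vertical axis, leaving out 1 complex I member not reported here), grouped by complex, on the DHA diet (left) and the control diet (right). Red points rose and blue points fell at an adjusted p under 0.05, grey points did not pass, and the order within each complex follows the DHA diet.

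To show the DNA in front of members that rose, the 170 bases before the annotated start site are printed for 1 member of each complex, taken from RefSeq promoter windows on build GRCm38.p6. Each is the member called higher on the DHA diet with the largest log2 fold change among those with a searched motif wholly within these bases, leaving out 1 chromosome not printed here. Sequences run 5′ to 3′ on the gene's own strand, and capitals mark the motif matches. Ndufs8 lies at chr19:3912775-3912944 (minus strand), Sdhb at chr4:140961101-140961270 (plus), Uqcr11 at chr10:80406822-80406991 (minus), Cox6a1 at chr5:115348959-115349128 (minus) and Atp5h at chr11:115419920-115420089 (minus).
Ndufs8: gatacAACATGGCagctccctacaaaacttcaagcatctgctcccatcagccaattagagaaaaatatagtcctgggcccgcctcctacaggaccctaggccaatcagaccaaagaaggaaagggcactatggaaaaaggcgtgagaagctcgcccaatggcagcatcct
Sdhb: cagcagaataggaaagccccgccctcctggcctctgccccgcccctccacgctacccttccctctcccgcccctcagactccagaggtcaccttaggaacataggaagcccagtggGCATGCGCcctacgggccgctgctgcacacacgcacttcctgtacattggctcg
Uqcr11: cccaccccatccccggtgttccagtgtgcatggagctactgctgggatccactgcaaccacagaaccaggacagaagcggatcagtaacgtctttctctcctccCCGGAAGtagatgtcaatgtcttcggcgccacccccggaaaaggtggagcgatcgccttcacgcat
Cox6a1: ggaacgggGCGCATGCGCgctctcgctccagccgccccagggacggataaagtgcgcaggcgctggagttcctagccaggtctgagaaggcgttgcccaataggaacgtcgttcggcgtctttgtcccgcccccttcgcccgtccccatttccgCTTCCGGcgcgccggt
Atp5h: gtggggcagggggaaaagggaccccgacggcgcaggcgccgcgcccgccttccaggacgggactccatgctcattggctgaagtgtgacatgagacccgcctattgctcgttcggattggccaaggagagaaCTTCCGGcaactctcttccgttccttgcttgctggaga

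The motifs searched, on both strands, were GCGCATGC, the core bound by NRF1, CCGGAAG, bound by GABPA and other ETS factors, and AANATGGC, bound by YY1. All of these factors are known regulators of respiratory chain genes. The Cox6a1 stretch held overlapping NRF1 letters 162 to 153 bases before the start site and ETS letters 16 to 10 bases before it, Sdhb held NRF1 letters 54 to 47 bases before it, Uqcr11 and Atp5h held ETS letters, and Ndufs8 held YY1 letters. Of the 87 members 71 had a promoter window of 300 bases (250 before and 50 after the start site) in the RefSeq table. At least 1 of the 3 motifs was found in 38 of 71 members (53.5%), in 27.7% of 12718 tested genes and in 18% of all 27025 genes with a window. NRF1 letters were in 14.1% of members and 5.18% of tested genes, ETS letters in 23.9% and 17.3%, and YY1 letters in 25.4% and 8.84%. The YY1 letters were in 12 of 33 complex I windows, most of them after the start site. Members called higher on the DHA diet held a motif in 18 of 30 windows (60.0%), and the other members in 20 of 41 (48.8%). No test was made, and a match of letters does not show binding.

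In mice on the control diet, fewer members were called and the values depended on which air libraries were used. Of 87 members 10 rose after ozone and 0 fell (edgeR quasi-likelihood test, adjusted p under 0.05), 11.5% higher, beside 8.93% of all tested genes higher and 7.87% lower. The share of members called higher was thus near that of all genes. At an unadjusted p under 0.05, 27 were higher and 4 lower, beside 30.4% of all tested genes in either direction. DESeq2 called 13 higher and 0 lower, limma-voom called 17 higher and 1 lower (Cox8b), and library totals without further scaling gave 4 higher and 1 lower. That scaling also moved all tested genes, to 940 higher and 1737 lower on the control diet, against 1442 and 1271 with TMM scaling, and to 1836 and 1832 on the DHA diet, against 2055 and 1769. The members' median log2 fold change was 0.103, against −0.006 over all tested genes, and 74 of 87 were above 0. Only Sdhc had every ozone library above every air library, beside 4.5% of all tested genes.

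The members that rose on the control diet were Ndufa9, Ndufa10, Ndufa13 and Ndufb6 of complex I, Sdhc of complex II, Uqcrb, Uqcrc2 and Uqcrq of complex III, Cox5a of complex IV and Atp5pb of complex V. Their increases ran over 6.91 to 21.7%. Sdhc had 126, 135 and 141 CPM (lowest, median and highest) in control-diet ozone libraries, against 106, 117 and 125 CPM in control-diet air libraries. The groups did not overlap (log2 fold change 0.21 ± 0.039, adjusted p = 0.000621), and the call held in all 36 alternative analyses. Uqcrq had 110.5, 118 and 134 CPM after ozone, against 78.5, 97.5 and 123 CPM in air, with overlap (log2 fold change 0.28 ± 0.073, adjusted p = 0.00858). Atp5pb, a peripheral stalk subunit of the ATP synthase, had 204, 217.5 and 232 CPM after ozone and 176.5, 197 and 212 CPM in air (log2 fold change 0.16 ± 0.044, adjusted p = 0.0134). Uqcrq and Atp5pb were not called without control-diet air libraries 1 to 3. Cox5a (log2 fold change 0.18 ± 0.061, adjusted p = 0.0403) lost its call in 20 of 36 alternative analyses. Ndufa13, an accessory subunit of complex I, was called on this diet (log2 fold change 0.23 ± 0.070, adjusted p = 0.0229), and its value on the DHA diet was 0.16 ± 0.070 (adjusted p = 0.108).

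Without control-diet air libraries 1 to 3, 3 members were called higher and 2 lower on the control diet, the median log2 fold change of the 87 was −0.03, and 37 were above 0. Of the 10 calls with all libraries 1 was shared, Sdhc (log2 fold change 0.17, adjusted p = 0.0145). The other calls were Atp5a1 (0.15, adjusted p = 0.0354) and Ndufs1 (0.2, adjusted p = 0.0186) higher, and Cox7a2l (−0.26, adjusted p = 0.00868) and Uqcrh (−0.25, adjusted p = 0.025) lower. Without libraries 4 to 6 in their place, 51 members were called higher and 0 lower, and the median was 0.234. The shares of all tested genes in these fits are not given here, so a shift of the members cannot be told from a shift of all genes. Leaving out single libraries gave 3 (without control-diet air library 3) to 18 (without control-diet air library 5) members called higher. It gave 4 to 6 without control-diet air library 1 or 2, control-diet ozone library 1, 2, 3 or 6, DHA-diet air library 2, 3, 4 or 5, or DHA-diet ozone library 6. Cytosolic ribosomal protein genes moved with the same libraries: 1 of 76 rose and 2 fell with all libraries, and 1 rose and 23 fell without libraries 1 to 3. The calls on the DHA diet do not use these libraries except through the shared estimate of spread, and all 38 were kept without libraries 1 to 3, when 46 members were called higher and 1 lower.

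**Figure D3:**
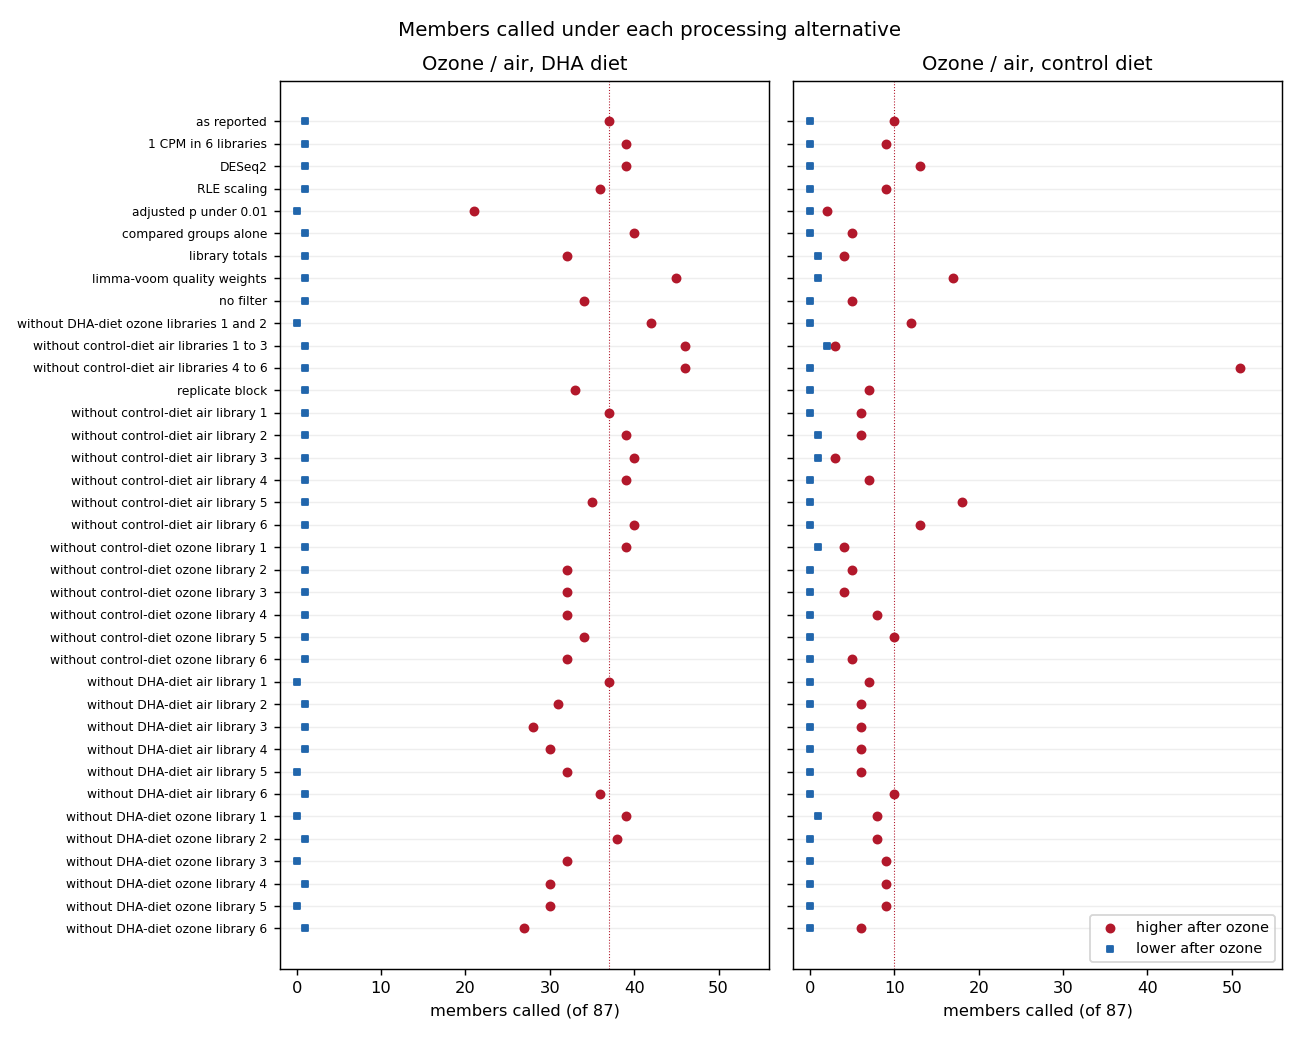
Number of the 87 members called higher (red circles) and lower (blue squares) after ozone (horizontal axes) under each processing alternative and without each library (vertical axis), on the DHA diet (left) and the control diet (right). The dotted line marks the reported count of 37 on the DHA diet and 10 on the control diet, and the counts called higher run over 21 to 46 and 2 to 51.

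The comparisons on each diet have their own air libraries. On both diets 8 members were called: Atp5pb, Cox5a, Ndufa9, Ndufa10, Ndufb6, Sdhc, Uqcrc2 and Uqcrq. Ndufa13 and Uqcrb were called on the control diet alone and 29 members on the DHA diet alone. The same overlap over all tested genes is not given here. Of all tested genes 12.7% were called higher on the DHA diet and 8.93% on the control diet. A call on a single diet does not show that the ozone change differs between diets. The difference itself, tested as the interaction of diet and exposure, was called in 0 members and in 0.0% of all tested genes by edgeR, and in 0 members by DESeq2 and limma-voom. At an unadjusted p under 0.05, 6 members had a larger ozone change on the DHA diet (Cox6a1, Atp5b, Ndufv1, Sdhb, Ndufs3 and Ndufv3) and 0 a smaller one, beside 6.12% of all tested genes in either direction. The lowest adjusted p was that of Cox6a1, with an interaction of 0.23 ± 0.079 on the log2 scale (adjusted p = 0.658), followed by Atp5b with 0.17 ± 0.065 (adjusted p = 0.695). Cox6a1 had a log2 fold change of 0.15 ± 0.056 on the control diet (adjusted p = 0.0601), with 220.5, 239 and 247 CPM after ozone and 190.5, 207 and 240.3 CPM in air. The median interaction over the 87 was 0.042 (0.001 over all tested genes). Without control-diet air libraries 1 to 3 it was 0.186, with 84 members above 0, and without libraries 4 to 6 it was −0.085, with 28 above 0, and in both cases 0 members were called.

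For the diet itself 0 members were called. In filtered air, DHA against control diet gave 0 of 87 calls by edgeR, beside 1.15% of all tested genes in either direction. DESeq2 called 1 lower, Cox7a1, and limma-voom 0. At an unadjusted p under 0.05, 17 members had lower levels on the DHA diet and 0 higher, beside 17.3% of all tested genes in either direction. In either direction together, the share of members was thus near that of all genes. Of the 17 members, Cox7a1, Cox6a2 and Cox8b are the muscle forms of complex IV subunits and the others include the core subunits Atp5a1, Ndufs1, Ndufs3, Ndufs7, Ndufv1, Sdha, Sdhb and Uqcrc1. The median log2 fold change was −0.028. It was −0.153 without control-diet air libraries 1 to 3, with 0 calls, and 0.119 without libraries 4 to 6, with 15 members called higher and 3 lower. The shares of all tested genes in these fits are not given here. After ozone, DHA against control diet gave 0 calls by edgeR, DESeq2 and limma-voom, 0 members at an unadjusted p under 0.05, and 0.0% of all tested genes called. The smallest p-values were those of Atp5b, with 692, 765 and 808 CPM on the DHA diet and 665, 723 and 749.5 CPM on the control diet (adjusted p = 0.367), and Atp5h, with 80.0, 85.1 and 94.7 CPM on the DHA diet and 76.4, 78.6 and 83.2 CPM on the control diet (adjusted p = 0.388). Both pairs of groups overlapped, and the median log2 fold change over the 87 was 0.023.

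Complex IV includes forms restricted to muscle and other tissues. Together with Ndufa4l2, which is counted with complex I, edgeR called 0 of 6 such forms tested in any comparison. Cox7a1 and Cox6a2 are the heart and skeletal muscle forms of the subunits that other tissues make from Cox7a2 and Cox6a1, and Cox8b is the muscle partner of Cox8a. Cox7a1 had 14.6, 16.7 and 21.2 CPM (lowest, median and highest) in DHA-diet ozone, 14.4, 16.8 and 19.5 in DHA-diet air, 13.7, 18.9 and 22.8 in control-diet ozone and 17.03, 23.4 and 27.3 in control-diet air libraries. The groups overlapped, and the diet comparison in air missed the threshold (log2 fold change −0.42 ± 0.124, adjusted p = 0.0787). Per kilobase of transcript, Cox6a2 amounted to 11.4 ± 1.09% of Cox6a1 in DHA-diet ozone, 14.5 ± 1.49% in DHA-diet air, 12.3 ± 1.70% in control-diet ozone and 16.1 ± 2.10% in control-diet air libraries (SD, n = 6 each). Cox8b amounted to 6.95 ± 0.971, 7.70 ± 0.935, 7.06 ± 1.26 and 9.13 ± 0.894% of Cox8a in the same order of groups. In control-diet air libraries 4 to 6 alone the shares were 15.1 ± 1.09% for Cox6a2 and 8.45 ± 0.193% for Cox8b (SD, n = 3). On the control diet the 3 muscle forms had log2 fold changes of −0.26 (Cox7a1), −0.23 (Cox6a2) and −0.24 (Cox8b) after ozone, while on the DHA diet their values were 0.04, 0.04 and 0.01, and edgeR called 0 of these. Cox4i2, a lung-rich form of Cox4i1 that responds to oxygen, amounted to 7.6 ± 0.904% of Cox4i1 per kilobase in DHA-diet ozone, 8.63 ± 0.811% in DHA-diet air, 7.39 ± 0.573% in control-diet ozone and 8.14 ± 0.945% in control-diet air libraries, and was not called in any comparison. Cox6b2 and Ndufa4l2 were not called either. Cox7b2 and Cox8c had too few reads to be members.

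Cardiac muscle markers, which mouse lung carries in the walls of its pulmonary veins, were at their highest in the same group. All 10 were detected, with summed levels of 1271 to 2001 CPM in DHA-diet ozone, 1334 to 2153 in DHA-diet air, 1225 to 2041 in control-diet ozone and 1736 to 2914 in control-diet air libraries. Their median log2 fold change was −0.466 for DHA against control diet in air, with 0 of 10 called, and −0.324 for ozone on the control diet, where Myh6 and Ryr2 fell. Within the control-diet air group, libraries 1 to 3 had the 3 highest sums, of 2869, 2914 and 2050 CPM, against 1997, 1999 and 1736 CPM in libraries 4 to 6. Without libraries 1 to 3 the medians were −0.287 and −0.162, and 0 of 10 were called in either comparison. On the DHA diet it was −0.048 after ozone. Skeletal muscle markers summed to 18.1 to 31.8 CPM in DHA-diet ozone, 21.3 to 37.3 in DHA-diet air, 25.5 to 42.8 in control-diet ozone and 32.1 to 46.9 in control-diet air libraries, and 3 of 10, Myh2, Myh4 and Pvalb, were too low to test. Brown adipocyte markers summed to 54.8 to 68.7, 59.6 to 73.9, 50.5 to 64.5 and 66.8 to 91.4 CPM in the same order of groups. Ucp1, Elovl3 and Otop1 were too low to test. Kcnk3 and Cidea fell after ozone on the DHA diet, and Kcnk3 and Fabp3 on the control diet. In filtered air Fabp3 was also lower on the DHA diet than on the control diet. Kcnk3 is also counted among the pericyte and smooth muscle markers below, so its fall is not particular to brown adipocytes. General adipocyte markers summed to 131.8 to 180.7, 121.1 to 271.6, 137.5 to 224.1 and 180.4 to 312.3 CPM in the same order of groups. Of these markers Pck1 and Plin4 fell after ozone on the control diet. The part of these cells in the isoform levels was not tested.

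**Figure D4:**
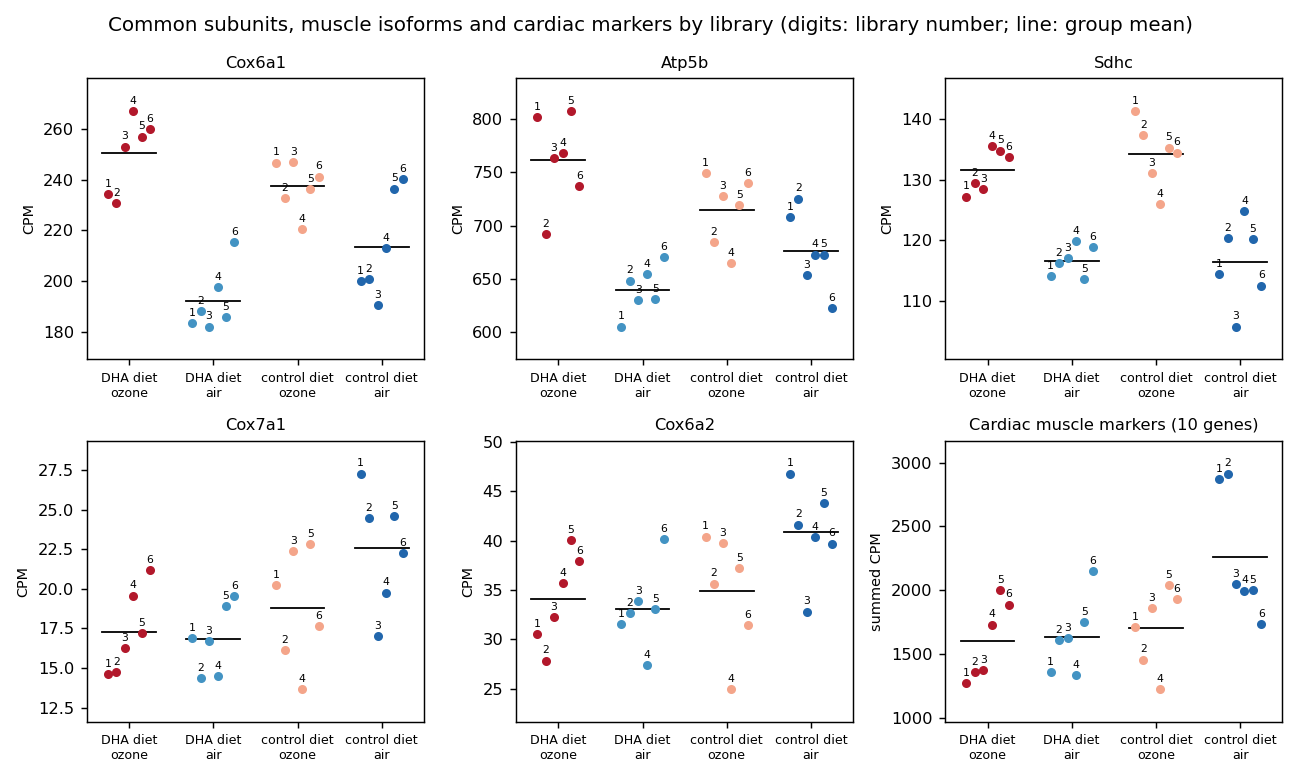
CPM of the common subunits Cox6a1, Atp5b and Sdhc and the muscle forms Cox7a1 and Cox6a2, and summed CPM of 10 cardiac muscle markers (vertical axes, not starting at 0), in every library of the 4 groups (horizontal axis). Points are libraries with their number and lines are group means. Cox6a1, Atp5b and Sdhc of DHA-diet ozone libraries lie above all DHA-diet air libraries, while the muscle forms and cardiac markers have their highest group means in control-diet air.

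Other mitochondrial gene groups were counted in the same fit, beside 12.7% of all tested genes higher on the DHA diet and 8.93% on the control diet. Of 78 mitochondrial ribosomal protein genes, which translate the subunits encoded by mitochondrial DNA, 33 rose on the DHA diet and 19 on the control diet, and 0 fell. Mrps28 had a log2 fold change of 0.48 ± 0.071 on the DHA diet (adjusted p = 2.91e-05) and 0.36 ± 0.071 on the control diet (adjusted p = 0.00105). On the control diet 3 of 78 rose and 1 fell without control-diet air libraries 1 to 3. The shares of all genes above are from all 24 libraries, and those without libraries 1 to 3 are not given here. Recounts in that smaller fit are therefore not read as results about a list. Of 16 tricarboxylic acid cycle genes 9 rose on the DHA diet and 2 on the control diet, among them Suclg1 (0.23 ± 0.046, adjusted p = 0.000618, on the DHA diet) of succinyl-CoA synthetase and Fh1 (0.21 ± 0.037, adjusted p = 0.000196), fumarase. On the control diet 4 of 16 rose without those libraries. Of 24 genes for protein import 9 rose on the DHA diet and 6 on the control diet (1 without those libraries), led by Timm50 of the inner membrane translocase (0.39 ± 0.057, adjusted p = 2.79e-05, on the DHA diet) and Tomm40, the outer membrane channel (0.37 ± 0.057, adjusted p = 5.71e-05). Of 18 genes for electron carriers and coenzyme Q synthesis 5 rose on the DHA diet and 3 on the control diet (0 without those libraries). Coq7, a hydroxylase of coenzyme Q synthesis, had log2 fold changes of 0.43 ± 0.062 on the DHA diet (adjusted p = 2.49e-05) and 0.29 ± 0.062 on the control diet (adjusted p = 0.00243). Cycs, cytochrome c, had 0.39 ± 0.081 (adjusted p = 0.00102) and 0.24 ± 0.082 (adjusted p = 0.0412). Without control-diet air libraries 1 to 3, Mrps28 (adjusted p = 0.0301) and Suclg1 (adjusted p = 0.0389) were still called on the control diet, and Coq7 (adjusted p = 0.0766), Cycs (adjusted p = 0.107), Fh1 (adjusted p = 0.185), Timm50 (adjusted p = 0.333) and Tomm40 (adjusted p = 0.115) were not.

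Of 44 tested assembly factors 5 rose on the DHA diet (11.4%) and 3 on the control diet (6.82%), shares near or below those of all tested genes. Coa3, which helps build Cox1 into complex IV, and Ndufaf7 were called on both diets. Without control-diet air libraries 1 to 3, 0 of 44 rose and 1 fell on the control diet. Of 18 regulators of respiratory chain transcription and mitochondrial DNA, 0 rose and 1, the mitochondrial DNA polymerase Polg, fell on each diet (log2 fold change −0.17 ± 0.056, adjusted p = 0.0303, on the DHA diet and −0.20 ± 0.056, adjusted p = 0.0149, on the control diet). Of 7 tested uncoupling proteins and carriers, Slc25a4 and Slc25a5, the adenine nucleotide exchangers, and Slc25a3, the phosphate carrier, rose on the DHA diet, and Slc25a27 and Ucp3 fell. Slc25a5 had a log2 fold change of 0.39 ± 0.050 on the DHA diet (adjusted p = 9.01e-06) and 0.29 ± 0.050 on the control diet (adjusted p = 0.00029). Slc25a27 had −0.61 ± 0.117 (adjusted p = 0.000499) and −0.47 ± 0.118 (adjusted p = 0.0066). Without control-diet air libraries 1 to 3, Slc25a5 (adjusted p = 0.00275) and Polg (adjusted p = 0.00551) were called on the control diet and Slc25a27 (adjusted p = 0.0581) was not, with 0 regulators higher and 2 lower and 1 carrier higher and 0 lower. Cytosolic ribosomal protein genes were at 4 of 76 higher and 0 lower on the DHA diet, with a median log2 fold change of −0.004.

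**Figure D5:**
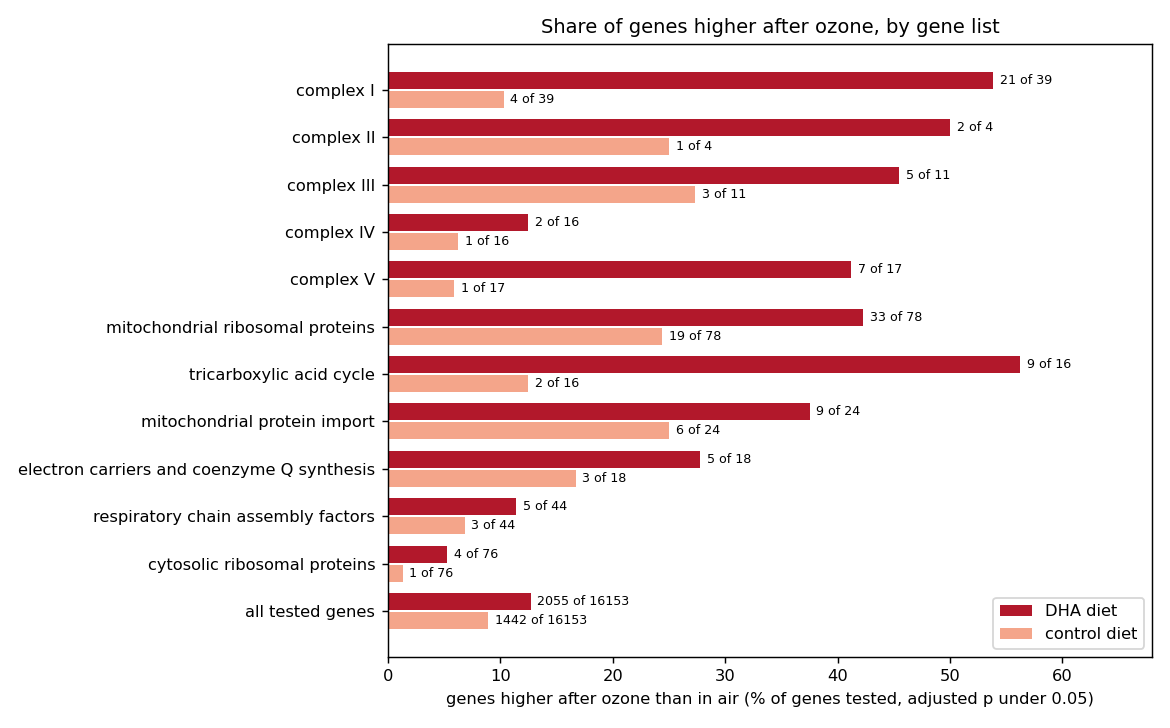
Percent of tested genes higher after ozone than in air at an adjusted p under 0.05 (horizontal axis) for the 5 complexes, other mitochondrial gene groups, cytosolic ribosomal proteins and all tested genes (vertical axis), on the DHA diet (dark bars) and the control diet (light bars), with counts beside the bars. Complex IV, with 2 of 16 on the DHA diet, stood at the level of all tested genes, and complex I reached 21 of 39.

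Other measures moved with ozone in the same libraries. Markers of cycling cells rose in 8 of 8 genes on both diets, with summed levels of 147.5 to 367 CPM in DHA-diet ozone, 111 to 126 in DHA-diet air, 170 to 233 in control-diet ozone and 106 to 118 in control-diet air libraries. Neutrophil markers rose in 7 of 8 genes on the DHA diet and 1 of 8 on the control diet, with summed levels of 75.6 to 358, 47.0 to 84.0, 58.6 to 168 and 53.9 to 199.5 CPM in the same order of groups. Their part in the result was not tested. DHA-diet ozone libraries 1 and 2 had the highest neutrophil levels, and without them 42 members rose and 0 fell on the DHA diet. The share of all tested genes called without these 2 libraries is not given here. Alveolar macrophage markers rose in 3 of 9 genes on the DHA diet and 2 of 9 on the control diet, with summed levels of 450.0 to 624.7, 341 to 404, 446 to 558 and 306 to 383 CPM in that order of groups. Alveolar type 2 markers rose in 4 of 11 genes on the DHA diet and 8 of 11 on the control diet, against 7 of 11 there without control-diet air libraries 1 to 3. Pericyte and smooth muscle markers rose in 6 of 12 genes on the DHA diet, with 1 lower and a median log2 fold change of 0.155, and in 1 of 12 on the control diet, with 1 lower (0 higher and 2 lower without control-diet air libraries 1 to 3). Their summed levels were 1063 to 1192 CPM in DHA-diet ozone, 839.5 to 945.6 in DHA-diet air, 978 to 1066 in control-diet ozone and 851 to 1176 in control-diet air libraries, without overlap between ozone and air on the DHA diet. Alveolar type 1 markers rose in 3 of 7 genes on each diet, and in 0 of 7 on the control diet without control-diet air libraries 1 to 3. Ciliated cell markers had 0 of 8 higher and 1 lower on each diet. The part of these cells in the members' values was not tested either. Values also varied with transcript length: tested genes whose transcript is under 1000 bases had a median log2 fold change of 0.079 on the DHA diet and 0.061 on the control diet, against −0.06 and −0.036 for those of 4000 bases or more. The 52 members under 1000 bases had medians of 0.13 and 0.101, and the 24 members of 1000 to 2000 bases had 0.175 and 0.092, against 0.063 and 0.038 for all genes of that length. Copies in the genome could take reads from some members, and values of Cox7c, Ndufb4, Ndufb4c, Atp5g1, Atp5g2, Atp5k and Atp5l are uncertain for that reason.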

How the data were processed

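RNA sequencing counts of 24 mouse lung libraries were used. Per the submitters' processing notes, reads were handled in Partek, aligned with STAR to mm39 and assigned to genes with HTSeq, and the deposited table holds whole-number counts for each gene, not normalized. The sources used here give no tool versions, annotation or strand setting, so reads of overlapping antisense genes cannot be told apart. Depth was 18053493 to 26225630 counts per library, which sets the counting error of low members such as Ndufb4c.

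Groups came from the sample titles. The filterByExpr function kept 16153 genes (count of at least 10, total of at least 15). One quasi-likelihood model over all 24 libraries, with a mean for each group and 20 residual degrees of freedom, was fitted to the TMM-scaled counts (edgeR 4.0.16 in R 4.3.3). It gave 5 comparisons: the effect of ozone within either diet, the effect of the DHA diet within either exposure, and the interaction, with Benjamini-Hochberg adjustment over all tested genes and calls at an adjusted p under 0.05. CPM used TMM-scaled library sizes, and log2 CPM a prior count of 2. Gene lengths are those of principal transcripts in GENCODE vM21. The smallest chi-square per degree of freedom between libraries of a group was 4.71, so none was treated as a repeat deposit. Deviations from the group means correlated at −0.0169 on average between libraries sharing a replicate number, and 0 of 24 were closest to their own number, so the numbers were not taken as pairs.

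The members, gene lists and alternatives were chosen with earlier results of these data known. Genes named in full were up to 6 called members per direction with the smallest adjusted p, 2 members where none was called, restricted isoforms and their common forms, core subunits, the highest and lowest member, and up to 3 called genes of each other list. One member is counted in the totals and not reported singly here. Other members and genes were named after their values were seen. Alternatives were RLE scaling, library totals, DESeq2 1.42.0, limma-voom with quality weights (limma 3.58.1), no filter, at least 6 libraries with 1 CPM, the replicate number as a block, the compared groups fitted alone, an adjusted p under 0.01, and fits without each library, without DHA-diet ozone libraries 1 and 2, and without control-diet air libraries 1 to 3 or 4 to 6. Python 3.11.15, pandas 2.3.3, numpy 2.4.6 and matplotlib 3.10.9 made tables and figures.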

Additional observations from a re-analysis of the deposited data

Results flagged for a closer look

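Single libraries stood far from the other 5 of their group in 6 of 180 groups checked, and chance gives about 1 in 20. Ndufa9 was highest in DHA-diet air library 6, with 87.2 CPM against 77.1 to 80.2 in the others. Uqcrc2 was highest in DHA-diet air library 5, with 135 CPM against 129 to 131. Ndufa4l2 was also highest in DHA-diet air library 5, with 30.5 CPM against 23.3 to 25.7. Cox6b2 was lowest in DHA-diet air library 4, with 15.4 CPM against 18.3 to 19.5. Ndufs3 was lowest in DHA-diet ozone library 1, with 41.3 CPM against 50.4 to 54.0. The summed CPM of complex V was lowest in DHA-diet ozone library 2, with 2782 CPM against 2956 to 3053.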

How the results depend on the processing

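On the DHA diet, members called higher after ozone numbered 32 to 46 in 11 alternatives and 27 (without DHA-diet ozone library 6) to 40 when single libraries were left out, against 37 as reported, and 21 at an adjusted p under 0.01. The 1 member called lower, Cox7a2l, became 0 at an adjusted p under 0.01 and without DHA-diet ozone libraries 1 and 2, and ranged over 0 to 1 without single libraries. On the control diet, the 10 called higher became 2 at an adjusted p under 0.01, 5 with the compared groups alone, 4 with library totals, 17 with limma-voom, 5 with no filter, 3 without control-diet air libraries 1 to 3 and 51 without libraries 4 to 6, and 3 to 18 without single libraries. The 0 called lower became 1 with library totals, 1 with limma-voom, 2 without control-diet air libraries 1 to 3, and 0 to 1 without single libraries. For diet in air, 0 higher became 15 without control-diet air libraries 4 to 6, and 0 lower became 1 with DESeq2, with the compared groups alone and without DHA-diet ozone libraries 1 and 2, and 3 without control-diet air libraries 4 to 6. Each was 0 to 1 without single libraries. Diet after ozone and the interaction stayed at 0 calls in every alternative run. The cause of these differences was not tested, apart from the stricter threshold, which can only remove calls.

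With the replicate block, 33 members were called higher and 1 lower on the DHA diet and 7 higher and 0 lower on the control diet. The labels do not say that a number marks a shared animal or day. Of the 29 calls among named members and comparisons, followed over all alternatives, 910 of 1044 results stayed called, 134 lost the call and 0 changed sign. Depth limits the members of lowest level, such as Ndufb4c at 2.34 to 5.64 CPM in control-diet air.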
